A study of Rattus norvegicus with 8 samples.

Results

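The miR-99, miR-100 and miR-125 families were followed in miRNA sequencing of rat BMSCs (bone marrow mesenchymal stem cells), marrow stromal cells that adhere to plastic and can turn into osteoblasts, chondrocytes or adipocytes. The members were all rows of the deposited table named miR-99a, miR-99b, miR-100, miR-125a or miR-125b, on either arm of the hairpin, and they came to 10 of the 487 rows. The samples were 4 labelled as treated with dexamethasone, a synthetic glucocorticoid, at 10 µM for 48 h, and 4 labelled as control. Both groups were BMSCs of Rattus norvegicus, and the labels used here name no strain, animal age, vehicle or genetic change and no time in culture for the controls. Nothing in them tells if replicates came from separate cultures or animals, so p-values reflect the spread among these 8 samples, and that spread may be technical. The series asks how the treatment changes miRNA levels.

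A miRNA guides Argonaute proteins to messenger RNAs, mostly through its seed, taken here as bases 2 to 8, and lowers their translation and stability. miR-125 is the vertebrate counterpart of lin-4 of Caenorhabditis elegans, and miR-99 and miR-100 form a family known for targeting Mtor. Vertebrate genomes keep a member of each family beside a let-7 gene in short conserved clusters. In mesenchymal cells of mouse and human, miR-125b is known for restraining osteoblast differentiation.

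The mature sequences below, from RefSeq on the rat build GRCr8, show which members share a seed and how close paralogs are, which decides how far their counts can be told apart. RefSeq entries matched 9 of the 10 members, all but miR-99a-5p, so how close its sequence is to that of miR-100-5p is not shown. Each is given 5′ to 3′ with its seed in capitals, first the 5p arms of the families with miR-351-5p, which carries the same seed as miR-125, and then 3p arms of miR-125.
rno-miR-99b-5p: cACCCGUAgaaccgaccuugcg
rno-miR-100-5p: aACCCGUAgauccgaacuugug
rno-miR-125a-5p: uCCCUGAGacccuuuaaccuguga
rno-miR-125b-5p: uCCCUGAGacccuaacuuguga
rno-miR-351-5p: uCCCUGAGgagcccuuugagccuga
rno-miR-125a-3p: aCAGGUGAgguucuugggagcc
rno-miR-125b-1-3p: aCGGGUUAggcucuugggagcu
rno-miR-125b-2-3p: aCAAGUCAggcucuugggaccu

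Counted from 1 at the 5′ end of miR-100-5p, miR-99b-5p differed by the substitutions A1C, U11A, A16C and U21C, all outside the seed. miR-125a-5p and miR-125b-5p were identical over their first 13 bases. miR-351-5p shared only the first 8 bases with miR-125b-5p before the sequences diverged. The 3p arms of the 2 miR-125b genes differed by 4 substitutions over 22 bases (G3A, G4A, U7C and G20C, from miR-125b-1-3p to miR-125b-2-3p), so each 3p arm marks its own gene. miR-125b-5p is made by both genes, and its count cannot be divided between them. Compared without gaps over 22 bases, miR-100-5p and miR-99b-5p differed at 4, as many as these 3p arms, and miR-125a-5p and miR-125b-5p at 7. How the authors counted reads that fit several miRNAs, and how many mismatches they allowed, is not stated in the sources used. How far the individual values of these paralogs, 5p or 3p, are affected is therefore not known. This is most open for miR-99a-5p and its close relatives, since its sequence is not shown, and their values are uncertain individually.

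On GRCr8 the families lie in 3 clusters, all on the plus strand. On chromosome 1, Mir99b, Mirlet7e and Mir125a lie within the gene Spaca6. On chromosome 8, Mir100, Mirlet7a-2 and Mir125b1 lie within Mir100hgl and the long noncoding RNA Lnc215. On chromosome 11, Mir99a, Mirlet7c1 and Mir125b2 lie within the long noncoding RNA LOC103693508. Whether they are exonic or intronic there was not examined.

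Total counts ran from 1377881 to 1521505 in the 4 dexamethasone samples and from 1835256 to 2639007 in the 4 control samples, so every treated library was the shallower and depth and treatment cannot be told apart. Levels are in CPM, each count scaled to a common sample total. Dexamethasone replicate 1 stood apart from the other treated libraries. Its chi-square per degree of freedom against each of them was 37 to 48.6, against 7.56 to 20.5 among the other treated libraries and 8.96 to 20.3 among controls. Values without this library are given beside many of the arms and ratios. Of the 7 mesenchymal marker miRNAs listed, all 7 were counted in every sample, with a summed level of 227198 to 256138 CPM in dexamethasone and 196077 to 208348 CPM in control samples (3 of 7 tested rose, among them miR-21-5p at a log2 fold change of 0.58, and 1 fell, miR-143-3p at -0.30). Other marker sums were far lower. The muscle list had 244.2 to 344.4 CPM in dexamethasone and 81.4 to 110.6 CPM in control samples (3 of 3 tested rose), the endothelial list 1163 to 1332 CPM and 1790.1 to 2000.3 CPM (2 of 2 tested fell) and the haematopoietic list 50.4 to 68.2 CPM and 36.4 to 46.8 CPM (1 of 2 tested rose). The neural list had 444.2 to 527.3 CPM in dexamethasone and 452.8 to 503.2 CPM in control samples (1 of 3 tested fell) and the epithelial list 10.9 to 19.7 CPM and 9.5 to 15.3 CPM (the 1 tested did not pass). The listed markers miR-144-3p (haematopoietic), miR-124-3p and miR-137-3p (neural) and miR-208b-3p (muscle) had no row among the 487. No marker with a row was at 0 in all samples, but the erythroid miR-451-5p had 2 counts over the 4 dexamethasone and 1 over the 4 control samples. The part of these cell type markers in the changes described here was not tested, and in bulk samples fewer cells of a type and less RNA per cell cannot be told apart.

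The arms of the families differed widely in level in the same libraries, and miR-125b-5p led the order. Together the 10 arms held 14.8% to 16.3% of all counts in dexamethasone samples and 12.4% to 14.3% in control samples. miR-125b-5p was the second most abundant of the 487 rows, with a mean of 127603 CPM over the 8 samples. It was followed by miR-125a-5p (9439 CPM), miR-99b-5p (4818 CPM), miR-100-5p (2078 CPM) and miR-99a-5p (1100 CPM, means over the 8 samples). The 3p arms were scarcer. miR-125b-1-3p had 652 CPM, miR-99b-3p 84.6 CPM, miR-125b-2-3p 52.7 CPM, miR-125a-3p 33.9 CPM and miR-99a-3p 2.42 CPM. Neighbours in this order did not overlap within either group, except miR-99b-3p and miR-125b-2-3p in control samples and miR-125b-2-3p and miR-125a-3p in dexamethasone samples. A read covers a whole mature arm, so CPM do not scale with length, but capture during library preparation can differ between miRNAs, and the order is one of counts.

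**Figure D1:**
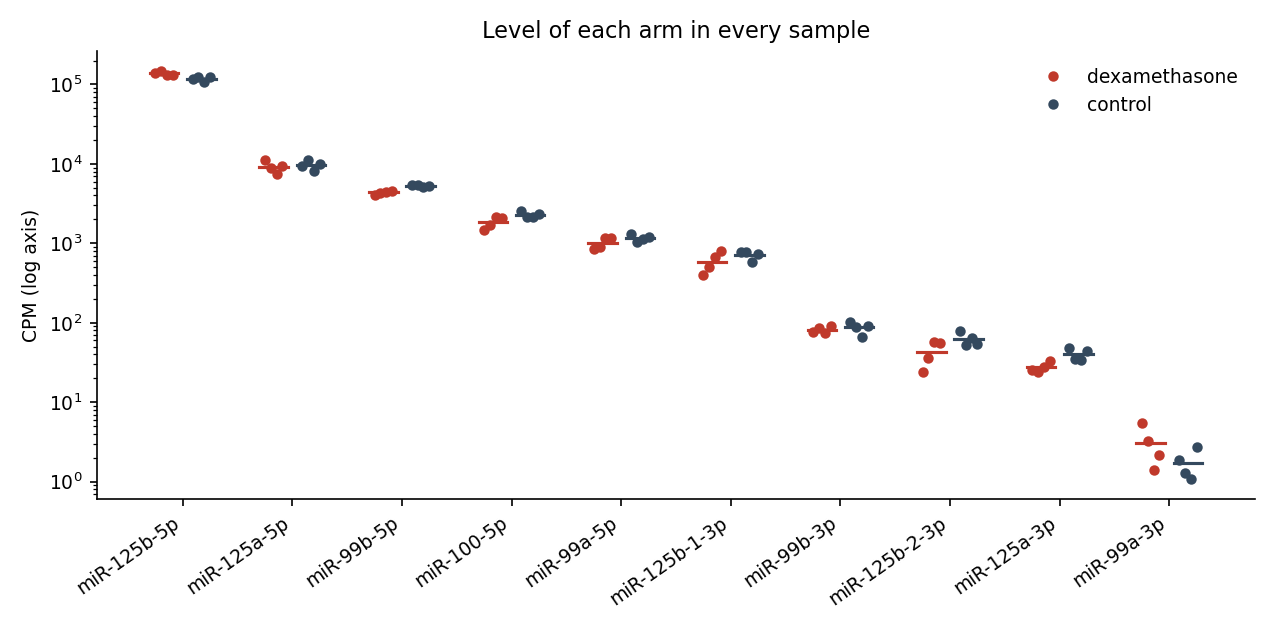
CPM on a log axis of the 10 family arms (x axis, by falling mean level) in the 4 dexamethasone samples (red, left of each pair) and the 4 control samples (dark blue, right); points are samples in replicate order and lines are group means. The levels run from 127603 CPM for miR-125b-5p to 2.42 CPM for miR-99a-3p, and the treated points of miR-125b-1-3p and miR-125b-2-3p spread more widely than the control points.

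Dexamethasone samples held more miR-125b-5p and less miR-99b-5p, miR-100-5p and miR-125a-3p than control samples, all by modest amounts. Of the 9 arms that passed the abundance filter, 1 rose and 3 fell in edgeR's quasi-likelihood test (p adjusted by Benjamini-Hochberg over all 245 tested miRNAs, threshold 0.05), and 5 did not pass. Of all tested miRNAs 46.1% passed, 24.9% higher and 21.2% lower, so a count of 4 in 9 was near the background. The groups did not overlap in 3 of the 9 arms, against 42.0% of all tested miRNAs. The median log2 fold change of the 9 arms was -0.25, beside 0.00 over all tested miRNAs. The median size of the change was 0.26 in the 9 arms and 0.30 over all tested. Without dexamethasone replicate 1 the count was 1 higher and 2 lower, beside 46.7% of the 255 miRNAs then tested (65 higher and 54 lower).

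**Figure D2:**
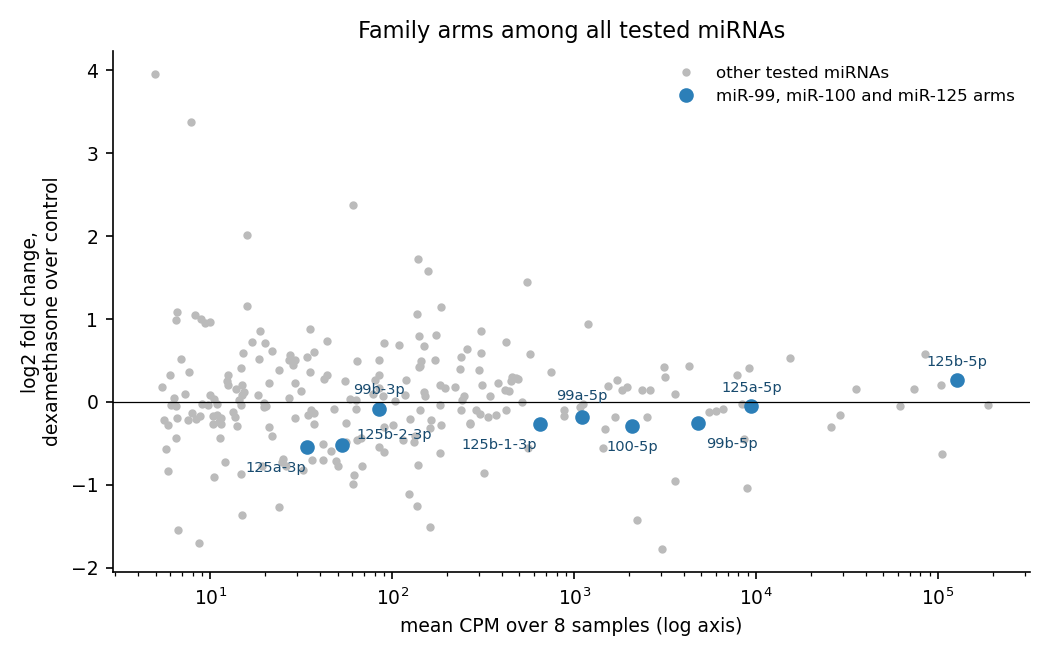
The log2 fold change of dexamethasone over control (y axis) against the mean CPM over 8 samples (x axis, log scale) for the 245 tested miRNAs; blue points are the 9 tested arms of the families and grey points the rest. miR-125b-5p, at 0.26, is the only blue point above 0, and the other 8 lie between -0.54 and -0.05 (under other settings miR-125a-5p reached 0.02 and miR-99b-3p 0.00).

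The rise was in the most abundant member. rno-miR-125b-5p had 139474, 147029, 132189 and 132588 CPM in dexamethasone replicates 1 to 4, against 118285, 122780, 106174 and 122307 CPM in control replicates 1 to 4. All 4 treated samples lay above all 4 controls, and control replicate 3 was the lowest of the 8. The mean was 137820 ± 6991 CPM in dexamethasone and 117386 ± 7742 CPM in control samples (SD, n = 4), a 1.20-fold rise with a log2 fold change of 0.26 ± 0.06 (SE, 95% interval 0.13 to 0.39, adjusted p = 0.00329 in edgeR). With upper quartile scaling, which put the median of all tested miRNAs at -0.15, the log2 fold change was 0.11 and did not pass (adjusted p = 0.231 in edgeR). Without dexamethasone replicate 1 it was 0.23 (adjusted p = 0.003 in edgeR).

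Its paralog miR-125a-5p, from another cluster but with the same seed, did not pass. rno-miR-125a-5p had 11063, 8873, 7431 and 9273 CPM in dexamethasone replicates 1 to 4, against 9503, 11058, 8234 and 10079 CPM in control replicates 1 to 4. The groups overlapped over most of their range, with dexamethasone replicate 1 the highest sample and dexamethasone replicate 3 the lowest. The log2 fold change was -0.05 ± 0.12 (SE, 95% interval -0.33 to 0.22, adjusted p = 0.758 in edgeR), and -0.18 without dexamethasone replicate 1 (adjusted p = 0.0991 in edgeR). The share of miR-125a-5p in the 5p reads of the miR-125 family was 6.22% ± 0.906 in dexamethasone and 7.63% ± 0.456 in control samples (SD, n = 4). The change in the log2 ratio of miR-125a-5p to miR-125b-5p, which no scaling between libraries can move, was -0.32 (exact two-sided permutation p = 0.0571, adjusted p = 0.131 over 16 ratios). It was -0.41 without dexamethasone replicate 1. The summed level of miR-125a-5p and miR-125b-5p was 139620 to 155903 CPM in dexamethasone and 114409 to 133839 CPM in control samples, without overlap.

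The 3p arms of miR-125, mostly discarded when the 5p arm is loaded into Argonaute, were lower in mean in dexamethasone samples. The arm that passed was the scarcest of them. rno-miR-125a-3p had 25.5, 23.7, 27.4 and 33.4 CPM in dexamethasone replicates 1 to 4, against 48.5, 34.5, 34.3 and 44.0 CPM in control replicates 1 to 4. No treated sample reached a control sample, though dexamethasone replicate 4 came close to control replicates 2 and 3. The log2 fold change was -0.54 ± 0.17 (SE, 95% interval -0.91 to -0.17, adjusted p = 0.0214 in edgeR). It rested on 36 to 46 counts per dexamethasone sample and 63 to 128 per control sample. With all libraries thinned to 1377881 counts it did not pass (-0.47, adjusted p = 0.0653 in edgeR), nor did it without control replicate 1 (-0.44, adjusted p = 0.055 in edgeR) or dexamethasone replicate 2 (-0.49, adjusted p = 0.0541 in edgeR). Without dexamethasone replicate 1 it was -0.53 (adjusted p = 0.0452 in edgeR).

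The 3p arms of both miR-125b genes were split among treated samples. rno-miR-125b-1-3p, from the chromosome 8 gene, had 397, 500, 671 and 793 CPM in dexamethasone replicates 1 to 4, against 770, 769, 588 and 729 CPM in control replicates 1 to 4. rno-miR-125b-2-3p, from the chromosome 11 gene, had 24.2, 36.1, 57.0 and 55.2 CPM in dexamethasone replicates 1 to 4, against 78.1, 53.2, 63.8 and 53.9 CPM in control replicates 1 to 4. For both arms dexamethasone replicates 1 and 2 lay below every control, while dexamethasone replicates 3 and 4 lay within or, for miR-125b-1-3p in replicate 4, above the control range. Their coefficients of variation were 29.9% and 36.6% among dexamethasone samples and 12.1% and 18.6% among control samples, for miR-125b-1-3p and miR-125b-2-3p in that order. Neither passed, with log2 fold changes of -0.26 ± 0.17 for miR-125b-1-3p (SE, 95% interval -0.63 to 0.11, adjusted p = 0.243 in edgeR) and -0.52 ± 0.22 for miR-125b-2-3p (SE, upper end of the 95% interval -0.03, adjusted p = 0.0768 in edgeR). The value of miR-125b-1-3p was -0.12 without dexamethasone replicate 1, and without dexamethasone replicate 4 it was -0.40 and passed (adjusted p = 0.0295 in edgeR). That of miR-125b-2-3p was -0.34 without dexamethasone replicate 1 (adjusted p = 0.173 in edgeR), and it fell at -0.69 without dexamethasone replicate 3 (adjusted p = 0.0277 in edgeR) and at -0.63 without dexamethasone replicate 4 (adjusted p = 0.0367 in edgeR). miR-125b-2-3p was called in 7 of 19 alternatives, also with upper quartile scaling (-0.67, adjusted p = 0.0147), with library sizes without the 10 most abundant miRNAs (-0.59, adjusted p = 0.0391), with no filter (-0.53, adjusted p = 0.0335), with the filter of 10 CPM (-0.59, adjusted p = 0.0461) and in DESeq2 (-0.56, adjusted p = 0.0355). miR-125b-1-3p was called in 2 of 19, the other being upper quartile scaling (-0.41, adjusted p = 0.0427).

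The ratio of the 5p arm to its 3p arm was therefore set out per sample. The log2 ratio of miR-125b-5p to miR-125b-1-3p was 8.46, 8.20, 7.62 and 7.38 in dexamethasone replicates 1 to 4, against 7.26, 7.32, 7.50 and 7.39 in control replicates 1 to 4. There were 5773, 4067, 2319 and 2404 counts of miR-125b-5p per count of miR-125b-2-3p in dexamethasone replicates 1 to 4, against 1515, 2307, 1665 and 2268 in control replicates 1 to 4. In both ratios dexamethasone replicates 1 and 2 were far above the rest and replicates 3 and 4 close to the controls. The log2 ratio changed by 0.82 for miR-125b-2-3p, without overlap (exact two-sided permutation p = 0.0286, which is the lowest value possible with 70 assignments, adjusted p = 0.0914), and by 0.55 for miR-125b-1-3p, with overlap (exact two-sided permutation p = 0.0857, adjusted p = 0.152). Without dexamethasone replicate 1 the changes were 0.57 for miR-125b-2-3p and 0.37 for miR-125b-1-3p. The miR-125a hairpin gave a change of 0.45 (exact two-sided permutation p = 0.114, adjusted p = 0.183), and of 0.32 without dexamethasone replicate 1. The miR-99b hairpin went the other way. Its log2 ratio of miR-99b-5p to miR-99b-3p changed by -0.20, with overlap (exact two-sided permutation p = 0.2, adjusted p = 0.291), and by -0.20 without dexamethasone replicate 1. Since miR-125b-5p comes from both genes, the 2 miR-125b ratios do not measure the arm balance of 1 hairpin.

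**Figure D3:**
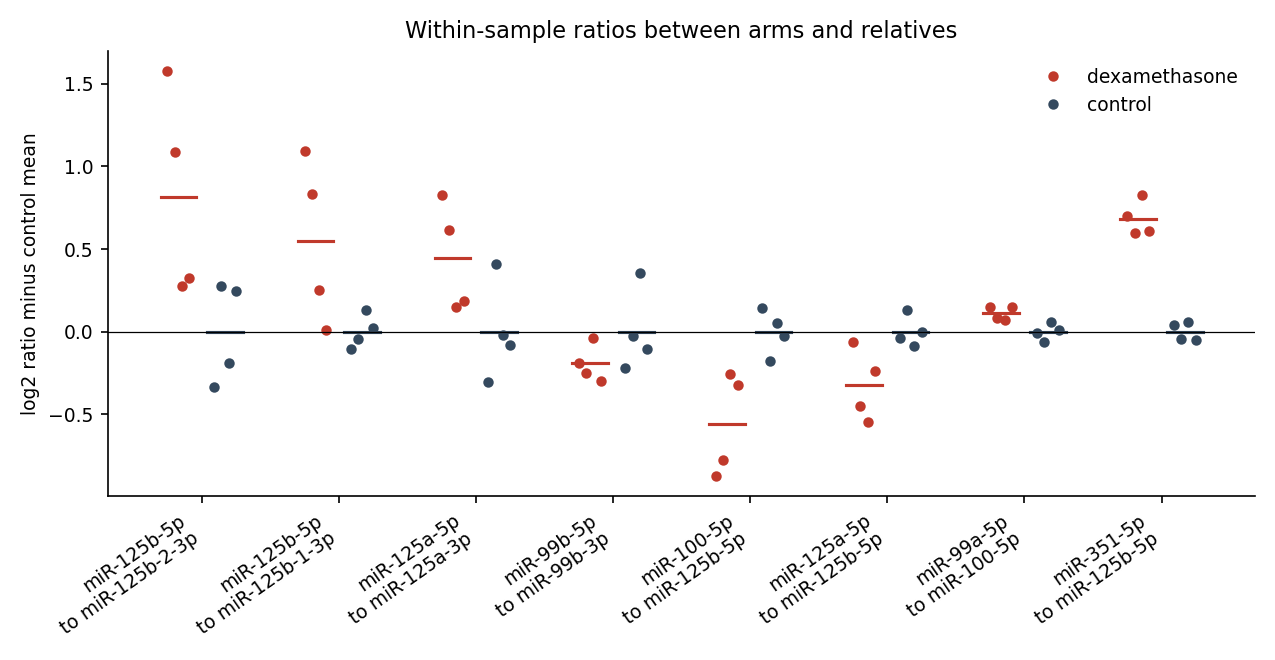
Within-sample log2 ratios of 8 pairs (x axis), each minus the mean of its control samples (y axis, log2 units); red points left of each pair are the 4 dexamethasone samples, dark blue points right of it the 4 control samples, and lines are group means. The mean of miR-125b-5p to miR-125b-2-3p lies 0.82 above control and that of miR-100-5p to miR-125b-5p 0.56 below, while miR-351-5p to miR-125b-5p lies 0.68 above with little spread.

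In the miR-99 and miR-100 family, miR-99b-5p fell with the tightest replicates of all members. rno-miR-99b-5p had 4108, 4354, 4406 and 4582 CPM in dexamethasone replicates 1 to 4, against 5377, 5355, 5155 and 5207 CPM in control replicates 1 to 4. All treated samples lay below all controls, with a gap between the groups wider than the range of either. The mean was 4362 ± 195 CPM in dexamethasone and 5273 ± 109 CPM in control samples (SD, n = 4). It was 1.19-fold lower, with a log2 fold change of -0.25 ± 0.05 (SE, 95% interval -0.36 to -0.13, adjusted p = 0.00209 in edgeR). It was the member called under every one of the 19 alternative settings and left-out replicates (-0.40 to -0.24), with -0.24 without dexamethasone replicate 1 (adjusted p = 0.00285 in edgeR). Its 3p arm, rno-miR-99b-3p, had 73.9 to 92.2 CPM in dexamethasone and 65.9 to 102 CPM in control samples and did not pass (-0.08 ± 0.14, log2 fold change, SE, 95% interval -0.38 to 0.23, adjusted p = 0.684 in edgeR).

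miR-100-5p and miR-99a-5p, known in other cells for the same Mtor target, were, like the miR-125b 3p arms, lowest in dexamethasone replicates 1 and 2. rno-miR-100-5p had 1492, 1684, 2167 and 2076 CPM in dexamethasone replicates 1 to 4, against 2555, 2126, 2164 and 2356 CPM in control replicates 1 to 4. Dexamethasone replicate 3 lay above 2 of the controls, so the groups overlapped. miR-100-5p fell near the threshold, with a log2 fold change of -0.29 ± 0.11 (SE, 95% interval -0.52 to -0.06, adjusted p = 0.0427 in edgeR). The call was lost without dexamethasone replicate 1 (-0.21, adjusted p = 0.0774 in edgeR) or 2 (-0.26, adjusted p = 0.0765), without control replicate 1 (-0.24, adjusted p = 0.0879) or 4 (-0.31, adjusted p = 0.0517), and with a replicate block (-0.30, adjusted p = 0.0593).

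rno-miR-99a-5p had 845, 911, 1165 and 1175 CPM in dexamethasone replicates 1 to 4, against 1296, 1041, 1150 and 1214 CPM in control replicates 1 to 4. Dexamethasone replicates 1 and 2 were below all controls and replicates 3 and 4 within their range. It did not pass (-0.18 ± 0.11, log2 fold change, SE, 95% interval -0.41 to 0.06, adjusted p = 0.202 in edgeR), except with upper quartile scaling (-0.33, adjusted p = 0.0175 in edgeR), and was at -0.11 without dexamethasone replicate 1 (adjusted p = 0.41 in edgeR). Its 3p arm, rno-miR-99a-3p, had 2 to 8 counts per dexamethasone sample and 2 to 6 per control sample, or 1.41 to 5.52 CPM and 1.09 to 2.70 CPM, and was left out by the abundance filter. A count of 0 allows 3 counts, or 1.97 to 2.18 CPM in dexamethasone and 1.14 to 1.63 CPM in control samples, a limit for counting error only. The count lay above 3 in 2 dexamethasone and 2 control samples and at or below it in the others.

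Within the family the shares of its members differed between groups by less than their spread. miR-99b-5p made up 60.5% ± 3.26 of the summed 5p reads of miR-99a, miR-99b and miR-100 in dexamethasone and 60.3% ± 1.98 in control samples, and miR-100-5p 25.5% ± 2.19 and 26.3% ± 1.24 (SD, n = 4). The summed level was 6445 to 7833 CPM in dexamethasone and 8469 to 9228 CPM in control samples, without overlap. There were 0.538 to 0.566 counts of miR-99a-5p per count of miR-100-5p in dexamethasone samples and 0.490 to 0.531 in control samples. The groups did not overlap, and the log2 ratio changed by 0.11 (exact two-sided permutation p = 0.0286, the smallest possible, adjusted p = 0.0914). The ratio of miR-99b-5p to miR-99a-5p changed by -0.06 and that of miR-99b-5p to miR-100-5p by 0.05 (exact two-sided permutation p = 0.6 and 0.714, adjusted p = 0.686 and 0.743), and without dexamethasone replicate 1 by -0.12 and -0.02.

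The arms were then set out by cluster, beside the let-7 arms of the same clusters, whose calls moved with single libraries. Of the 6 let-7 arms listed for the clusters, 5 were tested, 0 rose and 1 fell at an edgeR adjusted p below 0.05, with a median log2 fold change of -0.05. Without dexamethasone replicate 1, 3 let-7 arms fell, while 0 fell when control replicate 2, 3 or 4 was left out, and 0 when dexamethasone replicate 2 or 4 was. With all samples the fall was in the scarce rno-let-7c-1-3p, which had 10 to 16 counts per dexamethasone sample and 29 to 36 per control sample (-0.72 ± 0.26, log2 fold change, SE, adjusted p = 0.0415 in edgeR). It lost its call in 10 of 19 alternatives, with log2 fold changes of -0.87 to -0.60 and adjusted p from 0.0175 to 0.104. rno-let-7e-3p had 5 to 17 counts per dexamethasone and 13 to 22 per control sample and did not pass (0.10 ± 0.35, log2 fold change, SE, adjusted p = 0.845 in edgeR). It was at -0.23 without dexamethasone replicate 1 (adjusted p = 0.675 in edgeR). rno-let-7a-2-3p, which was not tested, had 1 count in 1 dexamethasone sample, 0 in the others and 2 to 4 in each control sample. In the chromosome 1 cluster, rno-let-7e-5p was at -0.08 ± 0.07 (log2 fold change, SE, adjusted p = 0.401 in edgeR), between miR-99b-5p and miR-125a-5p. It was lower and passed without dexamethasone replicate 1 (-0.16, adjusted p = 0.0242 in edgeR) and with upper quartile scaling (-0.23, adjusted p = 0.0356 in edgeR). There were 0.591 to 0.752 counts of miR-99b-5p per count of let-7e-5p in dexamethasone samples and 0.748 to 0.794 in control samples, a log2 change of -0.16 (exact two-sided permutation p = 0.0571, adjusted p = 0.131). The log2 ratio of miR-125a-5p to let-7e-5p changed by 0.02 and that of miR-99b-5p to miR-125a-5p by -0.18 (exact two-sided permutation p = 0.743 and 0.343, adjusted p = 0.743 and 0.457). Without dexamethasone replicate 1 the changes were -0.08 for miR-99b-5p to let-7e-5p, -0.02 for miR-125a-5p to let-7e-5p and -0.06 for miR-99b-5p to miR-125a-5p.

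In the chromosome 8 cluster the ratios of miR-100-5p to miR-125b-5p and to let-7a-5p were lower in every treated sample than in any control. There were 0.0107 to 0.0164 counts of miR-100-5p per count of miR-125b-5p in dexamethasone samples and 0.0173 to 0.0216 in control samples, a log2 change of -0.56. Per count of let-7a-5p there were 0.0370 to 0.0611 in dexamethasone and 0.0616 to 0.0766 in control samples, a log2 change of -0.45. Neither ratio overlapped between the groups (exact two-sided permutation p = 0.0286 each, adjusted p = 0.0914 each), and without dexamethasone replicate 1 the changes were -0.45 to miR-125b-5p and -0.31 to let-7a-5p. let-7a-5p itself was at 0.16 ± 0.06 and did not pass (log2 fold change, SE, adjusted p = 0.0548 in edgeR), though it did in 3 of 19 alternatives (0.01 to 0.20 over all 19), and was at 0.09 without dexamethasone replicate 1 (adjusted p = 0.058 in edgeR). It and miR-125b-5p are also made from other genes. In the chromosome 11 cluster the log2 ratio of miR-99a-5p to miR-125b-5p changed by -0.44 (exact two-sided permutation p = 0.0857, adjusted p = 0.152) and that to let-7c-5p by -0.13 (exact two-sided permutation p = 0.571, adjusted p = 0.686), and without dexamethasone replicate 1 the changes were -0.35 to miR-125b-5p and 0.00 to let-7c-5p. let-7c-5p, too, is made from another gene, Mirlet7c2 on chromosome 7, so its count is not that of the chromosome 11 cluster alone. It was at -0.05 ± 0.07 (log2 fold change, SE, adjusted p = 0.555 in edgeR), and was lower and passed without dexamethasone replicate 1 (-0.12, adjusted p = 0.0434 in edgeR) and with upper quartile scaling (-0.20, adjusted p = 0.0418 in edgeR).

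**Figure D4:**
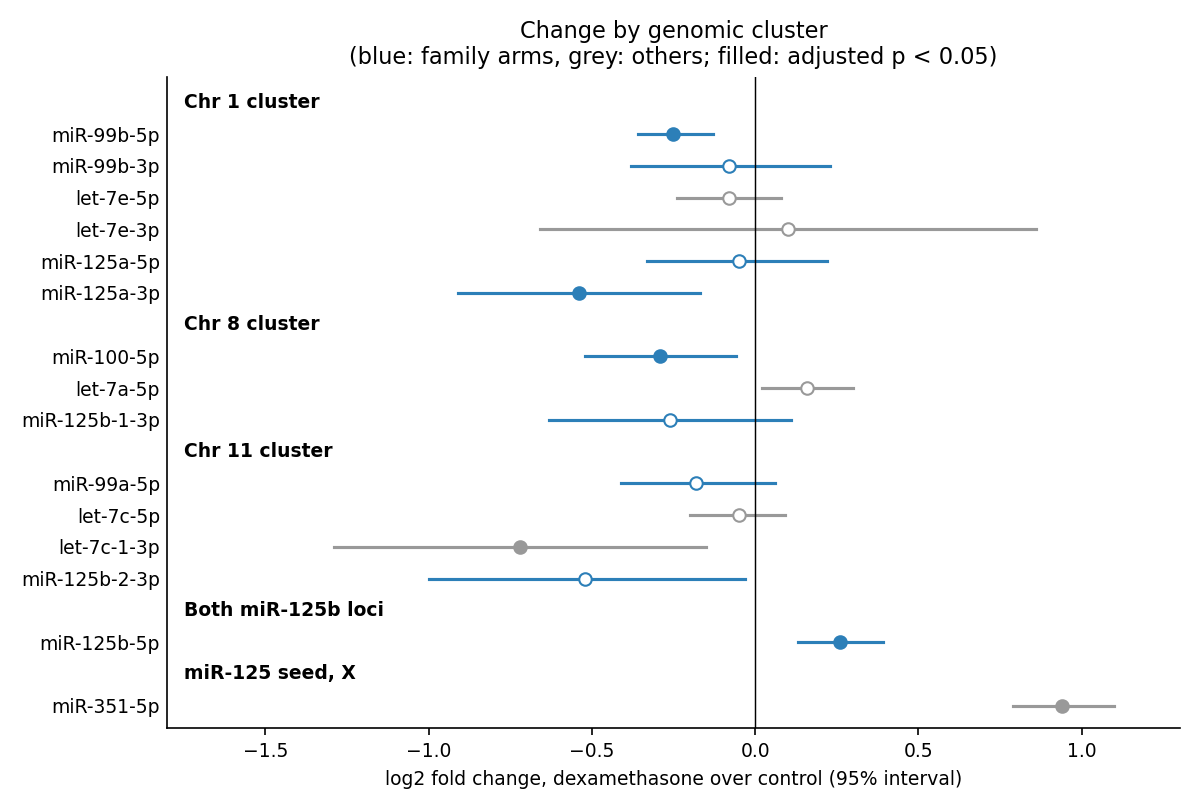
Log2 fold change of dexamethasone over control (x axis) with its 95% interval for the tested arms of the 3 clusters, miR-125b-5p and miR-351-5p; blue marks the miR-99, miR-100 and miR-125 arms, grey the others, and filled points passed an edgeR adjusted p of 0.05. Filled blue points are miR-99b-5p, miR-125a-3p and miR-100-5p below 0 and miR-125b-5p above it, and miR-351-5p lies highest at 0.94.

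Of the 16 ratios that could be computed from the 18 pairs listed, 0 passed an adjusted p of 0.05 and 5 reached the smallest exact p of 0.0286. With 16 ratios at least 10 would have to reach it before any could pass, so the 0 says little. How often ratios of other miRNA pairs reach it was not computed, so the 5 of 16 have no background share beside them. They are not separate results either, as miR-125b-5p and miR-100-5p each recur among them. The fifth of these ratios was that of miR-351-5p to miR-125b-5p. miR-351-5p, a rodent miRNA of the X-linked cluster with miR-322 and miR-503, was the 1 other row with the miR-125 seed and also rose. rno-miR-351-5p had 1424 to 1650 CPM in dexamethasone samples, against 779 to 853 CPM in control samples. The groups lay far apart, with a log2 fold change of 0.94 ± 0.07 (SE, adjusted p = 6.62e-07 in edgeR). Its log2 ratio to miR-125b-5p changed by 0.68, and in no sample was it more than a small part of the seed group. It made up 1.05% ± 0.0812 of the summed counts of miR-125a-5p, miR-125b-5p and miR-351-5p in dexamethasone and 0.647% ± 0.0272 in control samples (SD, n = 4). That sum was 141270 to 157475 CPM in dexamethasone and 115188 to 134680 CPM in control samples.

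The miR-10 arms, whose 5p sequences resemble miR-99 and miR-100 but carry another seed, were scarce. Of 4 arms 1 was tested, rno-miR-10a-5p, with 48.5 to 79.1 CPM in dexamethasone and 44.1 to 64.3 CPM in control samples (0.04 ± 0.17, log2 fold change, SE, 95% interval -0.33 to 0.41, adjusted p = 0.86 in edgeR). rno-miR-10b-5p had 1 count in each of 2 dexamethasone samples and 0 in the others and in all 4 controls. rno-miR-10a-3p had 1 to 3 counts per dexamethasone sample and 0 to 3 per control sample, and rno-miR-10b-3p 3 to 8 and 3 to 12.

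**Figure D5:**
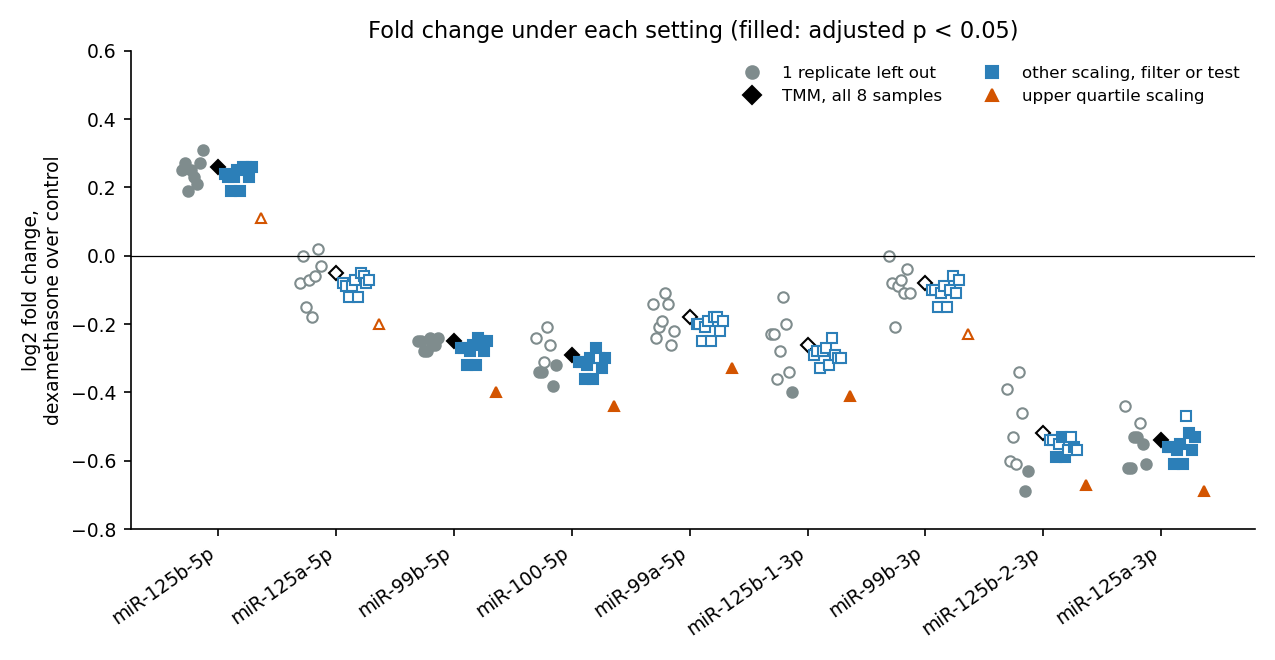
Log2 fold change of dexamethasone over control (y axis) of the 9 tested arms (x axis) with all 8 samples and TMM scaling (black), with 1 replicate left out (grey), with another scaling, filter or test (blue) and with upper quartile scaling (orange); filled points passed an adjusted p of 0.05. All points of miR-99b-5p are filled, miR-125b-5p is open only with upper quartile scaling (0.11), and the widest grey spread belongs to miR-125b-2-3p, from -0.69 to -0.34.

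The authors' deposited table had an adjusted p below 0.05 for 7 of the 10 arms, 1 higher and 6 lower, against 25.7% of its 487 rows. The 487 rows include 242 scarce miRNAs that the abundance filter left out, a filter that 9 of the 10 arms passed. The share was therefore not taken over rows of like abundance, and that over the 245 tested miRNAs was not computed. In edgeR the share called was 46.1% of 245 with the filter and 23.8% of 487 without. In the authors' deposited table miR-99a-5p (adjusted p = 0.0237), miR-125b-1-3p (adjusted p = 0.00209) and miR-125b-2-3p (adjusted p = 0.00651) passed, which did not pass in the edgeR fit (adjusted p = 0.202, 0.243 and 0.0768). These are the arms whose dexamethasone replicates 1 and 2 lay below every control and whose replicates 3 and 4 did not. In miR-100-5p, which passed in both, dexamethasone replicates 1, 2 and 4 lay below every control and replicate 3 did not. Whether this split bears on the difference in calls was not tested.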

How the data were processed

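Per the labels' protocols, a Qiagen miRNA kit served for extraction of total RNA and a VAHTS total RNA kit for the libraries, and selection of short RNAs is not stated. Bowtie 1.0 and the build mRatBN7.2 are named in the submitters' processing notes. The deposited table holds whole-number counts of 487 mature miRNAs per sample. Per the file headers it also gives the authors' CPM, group means of CPM, a log2 fold change and a p-value, raw and adjusted, from a test the sources do not state.

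The quasi-likelihood test of edgeR 4.0.16 in R 4.3.3 was run on the counts after filterByExpr and TMM scaling, with group alone in the model and Benjamini-Hochberg adjustment over all tested miRNAs (threshold 0.05). The filter kept 245 miRNAs; the 242 left out made up 0.0332% or less of each library. The SE is the size of the log2 fold change over the square root of F, and 95% intervals use its t quantile. CPM serve as levels. Log2 ratios within a sample (pseudocount 0.5) were tested by exact two-sided permutation (70 assignments), with p adjusted over 16 ratios. Both tests were checked on simulated data. The smallest fold change simulated for edgeR was larger than that of any arm called here, and the simulated ratio change was larger than any seen here. These checks therefore do not show how well smaller changes are found. Alternatives were RLE, upper quartile and total count scaling, library sizes without the 10 most abundant miRNAs or without the members, DESeq2 1.42.0, limma 3.58.1 voom, no filter, a filter of 10 CPM in 4 or more samples, thinning to 1377881 counts, a replicate block, each replicate left out, and a ratio pseudocount of 5.

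All members, the let-7 arms of their clusters, the miR-10 arms, rows sharing a seed and, for each tested member, the 3 miRNAs closest in profile are named. Members and lists were chosen with earlier results of these data known.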

Additional observations from a re-analysis of the deposited data

How the results depend on the processing

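Of the 9 tested arms, miR-125b-5p stayed above 0 and miR-99b-5p, miR-100-5p, miR-99a-5p and the 3 miR-125 3p arms stayed below 0 under all 19 alternative scalings, filters, tests and left-out replicates. miR-125a-5p (-0.20 to 0.02) and miR-99b-3p (-0.23 to 0.00) were never called. Upper quartile scaling moved the family counts most, to 0 arms higher and 6 lower against 1 and 3 with TMM, as the median of all tested miRNAs moved to -0.15; over all tested miRNAs it gave 41 higher and 71 lower against 61 and 52. With 1 replicate left out, 1 to 5 arms were lower. There was 1 without control replicate 1 or dexamethasone replicate 2, where 40.5% and 42.7% of all tested miRNAs were called, and there were 5 without dexamethasone replicate 4, where 51.2% were. The ratios at the smallest exact p were 4 with a pseudocount of 5 and 3 after thinning, against 5. None passed the adjusted threshold in either, which would have needed 10 at that p. Replicate numbers showed no pairing in the counts: deviations of same-numbered samples correlated at -0.03, -0.10, 0.08 and -0.21. Only dexamethasone replicate 3 had its own number as its best match, and no control sample did. Low correlations cannot tell if same-numbered samples came from the same culture or animal. With the replicate block 52 miRNAs were higher and 45 lower, and among the arms 1 was higher and 2 lower, the call of miR-100-5p being lost (edgeR adjusted p = 0.0593). Sign changes over the 4 same-numbered pairs cannot give a ratio a p below 0.125. On thinning miR-125a-3p was at -0.47 (edgeR adjusted p = 0.0653), against -0.54 (0.0214), and miR-125b-2-3p at -0.57 (0.0539), against -0.52 (0.0768).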

Other observations

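Profiles over the 8 samples were compared by the root mean square difference of log2 CPM, each profile centred on its own mean, as a description; smaller values mean closer profiles. The 3 tested miRNAs outside the families closest to miR-125b-5p were miR-322-5p (0.086), miR-19b-3p (0.090) and miR-199a-3p (0.091). For miR-125a-5p they were miR-674-3p (0.136), let-7b-5p (0.144) and let-7c-5p (0.150). Closest to miR-125b-1-3p were miR-184 (0.147), miR-872-5p (0.158) and miR-151-3p (0.172). For miR-125b-2-3p they were miR-409b (0.232), miR-222-3p (0.241) and miR-384-5p (0.271). Closest to miR-125a-3p were miR-34c-3p (0.137), miR-296-5p (0.157) and miR-134-5p (0.179). Among these miR-125 arms the differences were smallest for miR-125b-5p and largest for miR-125b-2-3p, while those of the scarcest arm, miR-125a-3p, lay between. For miR-99b-5p they were miR-196b-5p (0.051), miR-379-5p (0.062) and miR-140-5p (0.066). Closest to miR-99b-3p were miR-10a-5p (0.130), miR-328a-3p (0.160) and miR-382-5p (0.170). For miR-100-5p they were miR-872-5p (0.093), miR-22-3p (0.105) and miR-149-5p (0.148). Closest to miR-99a-5p were miR-872-5p (0.070), miR-22-3p (0.080) and miR-324-5p (0.124). miR-99a-5p and miR-100-5p were 0.069 from each other and shared miR-872-5p and miR-22-3p as their closest pair outside the families. How the authors counted reads that fit both is not stated, so the closeness of miR-99a-5p and miR-100-5p rests on values that are uncertain individually.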
